A study of Homo sapiens with 4 samples.

Results

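The transcripts described here are those of 36 aminoacyl-tRNA synthetase genes, 20 for the cytosolic enzymes and 16 for the mitochondrial ones, out of 28482 genes in the count table. The members were taken by gene symbol from a fixed list of names, which was chosen with earlier results of these data known. The mitochondrial enzymes are those whose symbol ends in the digit 2. RNA was sequenced from the line K562/G01, derived from K562 chronic myeloid leukemia cells and resistant to imatinib, which inhibits their BCR-ABL1 kinase. All cells carried a lentivirus. The TCF7 knockdown group with imatinib carried a TCF7-directed hairpin (TCF7 encodes a DNA-binding factor in Wnt signalling) and received imatinib at 1 µM for 48 hours, and the TCF7 knockdown group carried the same construct without the drug. The scramble group with imatinib carried a control hairpin with the same drug treatment, and the scramble group carried the control hairpin alone. Each of these 4 groups had 1 library, and the labels do not say whether cultures were infected separately or how many hairpins were used. The questions were how the transcripts that charge tRNA differed with TCF7 knockdown and with imatinib, and whether the cytosolic and mitochondrial sets moved alike.

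Each synthetase joins an amino acid to its matching tRNAs, which is the step at which the genetic code is read into amino acids. Cytosolic and mitochondrial tRNAs are mostly served by separate enzymes, all encoded in the nucleus, while GARS and KARS each encode both forms. When an amino acid runs short, uncharged tRNA activates the kinase GCN2, and the transcription factor ATF4 then raises genes of amino acid synthesis, transport and cytosolic tRNA charging through CEBP-ATF response elements in their promoters.

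Promoter sequences are shown first because they show which of these genes carry that element. The core of the element, TGATGNAA with N for any base, was searched on both strands (the other strand reads TTNCATCA) in RefSeq promoter windows of GRCh38.p14 that run from 250 bases before to 50 bases after an annotated start site. No other motif was searched, so overlap with other motifs is unknown. Windows were given for 30 of the 36 members and were not given for DARS, LARS, VARS, YARS, AARS2 and VARS2. The motif was present for 7 of 16 cytosolic genes (43.8%) and for 1 of 14 mitochondrial genes (7.14%), against 1217 of 27305 genes in the whole promoter table (4.46%) and 571 of 15843 protein-coding genes (3.6%). Counted by window, it was in 7 of 21 cytosolic and 1 of 18 mitochondrial windows, against 1270 of 35116 windows (3.62%). CARS, GARS and TARS each also had a window without it. The matches are given below in 30-base stretches on the strand of the gene, with the motif in capitals and the position of its first base relative to the start site, where negative values lie before it.
CARS (chr11:3057407-3057436, minus strand, first motif base at -2): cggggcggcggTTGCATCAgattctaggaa
MARS (chr12:57488053-57488082, plus strand, first motif base at -4): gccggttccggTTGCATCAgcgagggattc
IARS (chr9:92293692-92293721, minus strand, first motif base at -13): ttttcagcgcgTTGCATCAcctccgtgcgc
TARS (chr5:33440956-33440985, plus strand, first motif base at 3): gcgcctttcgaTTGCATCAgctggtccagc
NARS (chr18:57621804-57621833, minus strand, first motif base at 15): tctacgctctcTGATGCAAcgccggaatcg
GARS (chr7:30594834-30594863, plus strand, first motif base at -33): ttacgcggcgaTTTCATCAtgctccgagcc
AARS (chr16:70289675-70289704, minus strand, first motif base at -187): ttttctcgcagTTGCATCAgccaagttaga
YARS2 (chr12:32756076-32756105, minus strand, first motif base at -197): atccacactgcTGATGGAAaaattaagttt
In 6 of the 7 cytosolic matches the letters were TTGCATCA or its complement TGATGCAA, and GARS had TTTCATCA. In 4 of them, CARS, MARS, TARS and IARS, the first base lay within 13 bases of the annotated start site, whereas the mitochondrial match in YARS2 lay 197 bases before it. A match of letters is a description of the window and says nothing of whether a factor binds there.

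**Figure D1:**
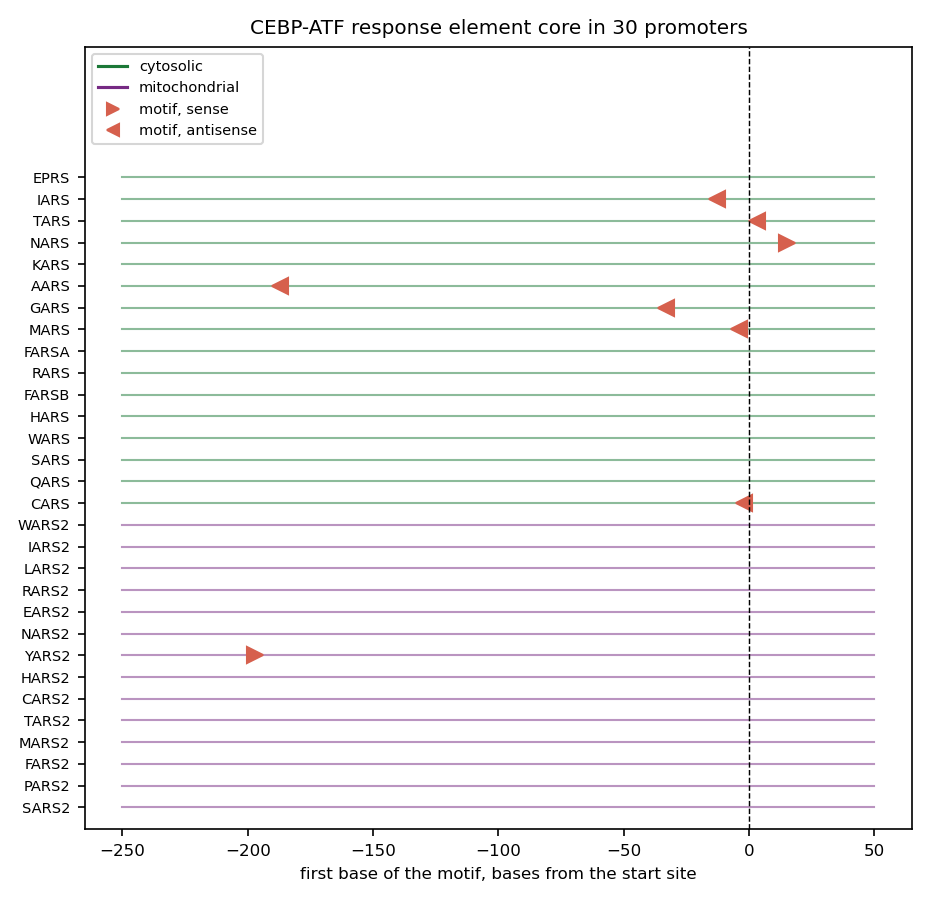
Position of the CEBP-ATF response element core in the RefSeq promoter windows of 30 synthetase genes; each line is a window from 250 bases before to 50 bases after the start site (x axis, bases from the start site), and arrowheads mark the first base of a match and its orientation. The 7 cytosolic genes with a match lie among 16, and the 1 mitochondrial gene with a match, YARS2, lies among 14.

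The libraries held 31744915 counts (knockdown with imatinib), 30634832 (knockdown), 34095585 (scramble with imatinib) and 33146606 (scramble). TCF7 had 117 and 78 counts in the knockdown libraries with and without imatinib, against 367 and 339 in the scramble libraries with and without imatinib, and fell with knockdown (log2 fold change -1.75, SE 0.206, edgeR adjusted p = 1.51e-07). The 8 erythroid markers checked, which K562 cells express, summed to 3308, 3263, 3338 and 3507 CPM in the same order of libraries with none at 0. Of 3 monocytic markers the summed level was 3.48 and 3.81 CPM with knockdown, against 1.77 and 2.11 CPM with scramble, and most of it was ITGAM, which rose with knockdown (log2 fold change 1.10, edgeR adjusted p = 0.0279), while CD14 and CSF1R stayed at or under 0.261 CPM. The part of this difference in the synthetase values was not tested. A change over pairs was tested with edgeR's quasi-likelihood test in a design with knockdown and imatinib as terms over all 4 libraries. This leaves 1 residual degree of freedom, the difference of the knockdown ratio between the imatinib states. The p-values, adjusted by Benjamini-Hochberg over 13296 genes, rest on that residual and on 33.8 prior degrees of freedom shared across genes. They measure no spread between replicate cultures, since each group has 1 library. Genes past an adjusted p of 0.05 are said to rise or fall, and a ratio of 2 libraries carries a 95% interval for counting error only. Counts at an unadjusted p under 0.05 are given without the share of all tested genes at that cut-off, so they cannot be set against a background.

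All 36 synthetases passed the expression filter of 1 CPM in 2 libraries, with 83 to 22559 counts per library. Compared per length, on the deposited FPKM values averaged over the 4 libraries, the cytosolic members had a median of 49.9 and the mitochondrial members a median of 10.1. The highest cytosolic levels were those of EPRS, which charges both glutamate and proline tRNAs (117), TARS for threonine (103) and IARS for isoleucine (83.6), and the lowest was that of CARS for cysteine (5.36). Both sets overlapped in level: WARS2, the mitochondrial tryptophan enzyme, reached 74.2 and IARS2, for isoleucine, 52.2, above the cytosolic WARS at 17.5 and YARS at 15.4. SARS2, the mitochondrial serine enzyme, had the lowest level of all members at 1.14, and 57.0% of its exonic bases are shared with other annotated genes, among them its neighbour MRPS12 on the opposite strand.

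The 2 sets kept nearly the same proportion in every library. Cytosolic members summed to 4986 and 5305 CPM in the knockdown libraries with and without imatinib, against 5287 and 5436 CPM in the scramble libraries with and without imatinib. Mitochondrial members summed to 1021 and 1045 CPM with knockdown, against 1079 and 1059 CPM with scramble. The mitochondrial share of synthetase counts was 17.0% (exact binomial interval 16.8% to 17.2%) and 16.5% (16.3% to 16.6%) with knockdown, against 17.0% (16.8% to 17.1%) and 16.3% (16.2% to 16.5%) with scramble. In knockdown and in scramble cells alike the share was higher with imatinib than without it, by less than 1 percentage point, and the knockdown and scramble values overlapped.

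**Figure D2:**
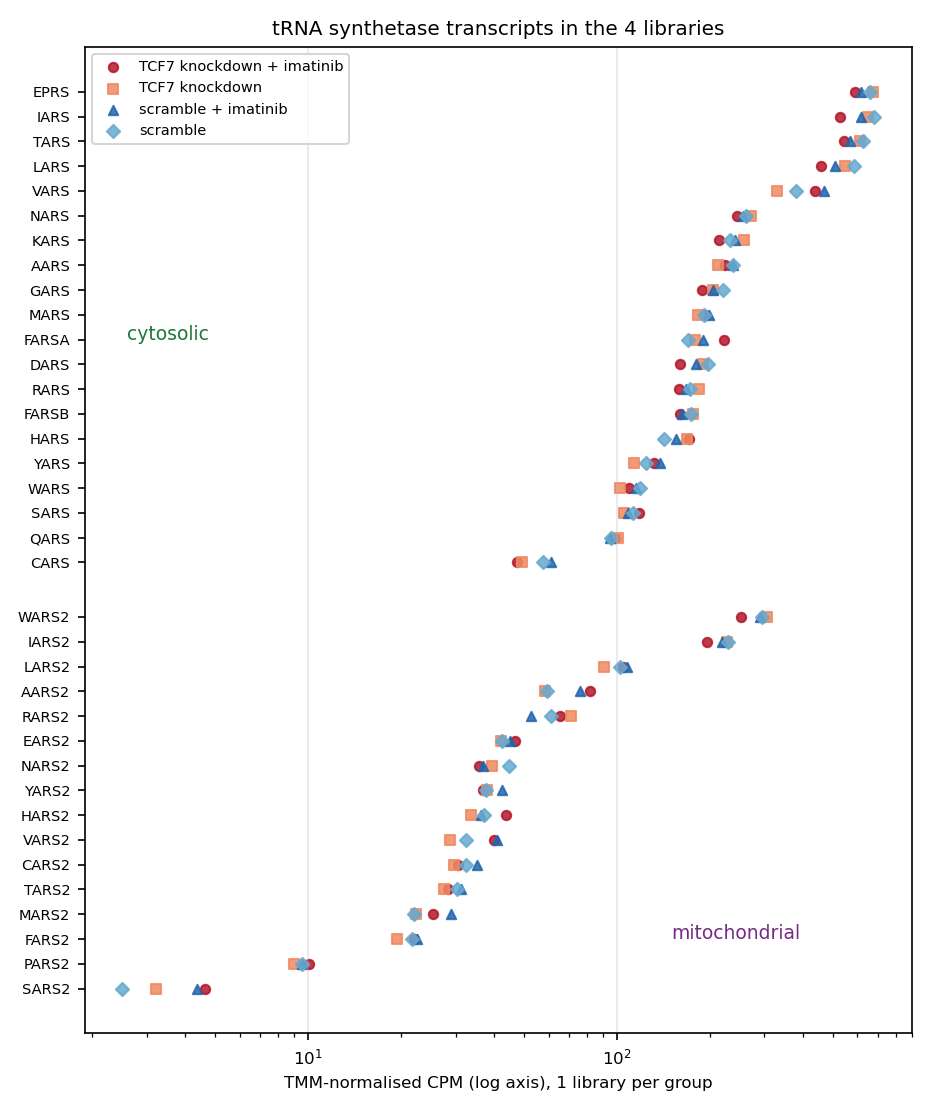
TMM-normalised CPM (x axis, log scale) of the 20 cytosolic and 16 mitochondrial synthetase transcripts in the 4 libraries, 1 point per library and no error bars because each group has 1 library. The 4 points of most genes lie close together, and the wider spreads include VARS, AARS2, VARS2 and the low SARS2.

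With TCF7 knockdown, 1 cytosolic synthetase was called. CARS, which charges cysteine tRNA, fell, no cytosolic member rose, and 19 of 20 were not called by edgeR. That is 5% of the set called lower, beside 3.34% of all 13296 tested genes called lower and 3.8% called higher. Among genes averaging at least 20 CPM these shares were 3.74% and 4.58%, so the count is near the background. At an unadjusted p under 0.05 there were 3 lower and 2 higher cytosolic members, and DESeq2 and limma each called 0. The fitted changes of the 19 uncalled members lay between -0.15 and 0.19 on the log2 scale, and their 95% intervals lay within -0.30 and 0.34.

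CARS (chromosome 11, 3000922 to 3057613, minus strand, GRCh38) had 47.4 and 49.3 CPM in the knockdown libraries with and without imatinib, against 61.0 and 57.4 CPM in the scramble libraries with and without imatinib. Both knockdown libraries lay below both scramble libraries. The log2 ratios were -0.37 (-0.46 to -0.27) under imatinib and -0.22 (-0.32 to -0.12) without it, and the fit gave a fall (log2 fold change -0.29, SE 0.0894, edgeR adjusted p = 0.0376). In RNA of whole cultures, fewer cells of a type and less RNA per cell cannot be told apart. The CARS call was kept with offsets for GC content and length (edgeR adjusted p = 0.00299). It was lost with DESeq2 (adjusted p = 0.345), with limma (adjusted p = 0.246 and 0.269) and without the expression filter (edgeR adjusted p = 0.0671). It was also lost without the imatinib term (edgeR adjusted p = 0.827), in a fit that called 0 genes of the whole table. Fits without 1 library leave 1 library in an arm and cannot decide the call. The CARS estimate stayed between -0.34 and -0.25 on the log2 scale over the 13 alternatives.

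HARS, the histidine enzyme (chromosome 5, 140673904 to 140691862, minus strand), had the highest fitted change of the cytosolic set. It was at 171 and 168 CPM in the knockdown libraries with and without imatinib, against 155 and 142 CPM in the scramble libraries with and without imatinib. Both knockdown values were above both scramble values, with log2 ratios of 0.14 under imatinib and 0.24 without it, and the change was not called (log2 fold change 0.19, SE 0.0725, edgeR adjusted p = 0.109). GARS, for glycine, had 189 and 204 CPM with knockdown (under imatinib and without it), against 205 and 221 CPM with scramble. Both knockdown values lay below both scramble values by a narrow margin, and the ratios were -0.12 under imatinib and -0.12 without it (log2 fold change -0.12, edgeR adjusted p = 0.374). VARS, for valine, had 436 and 329 CPM with knockdown (under imatinib and without it), against 469 and 378 CPM with scramble. Its groups overlapped across imatinib states, the ratios were -0.10 under imatinib and -0.20 without it, and it was not called (log2 fold change -0.15, edgeR adjusted p = 0.205). FARSA, the catalytic subunit of the phenylalanine enzyme, had ratios of 0.23 under imatinib and 0.08 without it, and its partner FARSB, the other subunit, -0.03 under imatinib and 0.01 without it.

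The mitochondrial synthetases likewise showed no call with knockdown in edgeR, 0 of 16, and 0 with DESeq2 or limma, while at an unadjusted p under 0.05 edgeR gave 1 higher and 0 lower. The fitted changes lay between -0.17 and 0.26 on the log2 scale. RARS2, the mitochondrial arginine enzyme (chromosome 6, 87514378 to 87590003, minus strand), had 65.5 and 71.0 CPM in the knockdown libraries with and without imatinib, against 52.8 and 61.3 CPM in the scramble libraries with and without imatinib. Both knockdown libraries were above both scramble libraries, with log2 ratios of 0.31 under imatinib and 0.21 without it (log2 fold change 0.26, SE 0.0851, edgeR adjusted p = 0.0557). TARS2, for threonine, had 28.3 and 27.6 CPM with knockdown (under imatinib and without it), against 31.1 and 30.2 CPM with scramble, and CARS2, for cysteine, had 30.5 and 29.6 CPM with knockdown (under imatinib and without it), against 35.2 and 32.4 CPM with scramble. Knockdown libraries were the lower ones for both genes, with ratios of -0.14 under imatinib and -0.13 without it for TARS2 and -0.20 under imatinib and -0.13 without it for CARS2, and neither was called. SARS2 had ratios of 0.09 under imatinib and 0.35 without it on 83 to 150 counts per library.

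Read over the whole list, knockdown ratios had medians slightly below 0. The cytosolic median was -0.07 under imatinib and -0.06 without it, the mitochondrial median -0.04 and -0.05, and the median of all tested genes 0.02 and 0.00. Of the 20 cytosolic members 11 were lower in both pairs and 3 higher in both, and of the 16 mitochondrial members 7 were lower and 2 higher in both, beside 29.5% and 32.9% of all tested genes. Past a log2 ratio of 0.32 in size, CARS was the only member lower under imatinib (11.3% of all tested genes, and 4.16% of those averaging at least 20 CPM) and none was higher (15.3% and 7.49%). Without imatinib SARS2 was the only member higher (9.63% and 2.99%) and none was lower (12.8% and 3.49%). With offsets for GC content and length 5 members were called: CARS, VARS (-0.18, edgeR adjusted p = 0.0320) and WARS, for tryptophan (-0.18, edgeR adjusted p = 0.0458), fell, and HARS (0.19, edgeR adjusted p = 0.0229) and RARS2 (0.25, edgeR adjusted p = 0.0110) rose, beside 5.53% of all tested genes lower and 6.72% higher in that fit. Over their alternatives the adjusted p ran from 0.0320 to 0.999964 for VARS, 0.0458 to 0.999964 for WARS, 0.0229 to 0.999964 for HARS and 0.0110 to 0.999964 for RARS2. WARS had 109 and 102 CPM with knockdown (under imatinib and without it), against 115 and 119 CPM with scramble, so its 2 knockdown libraries lay below its 2 scramble libraries.

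**Figure D3:**
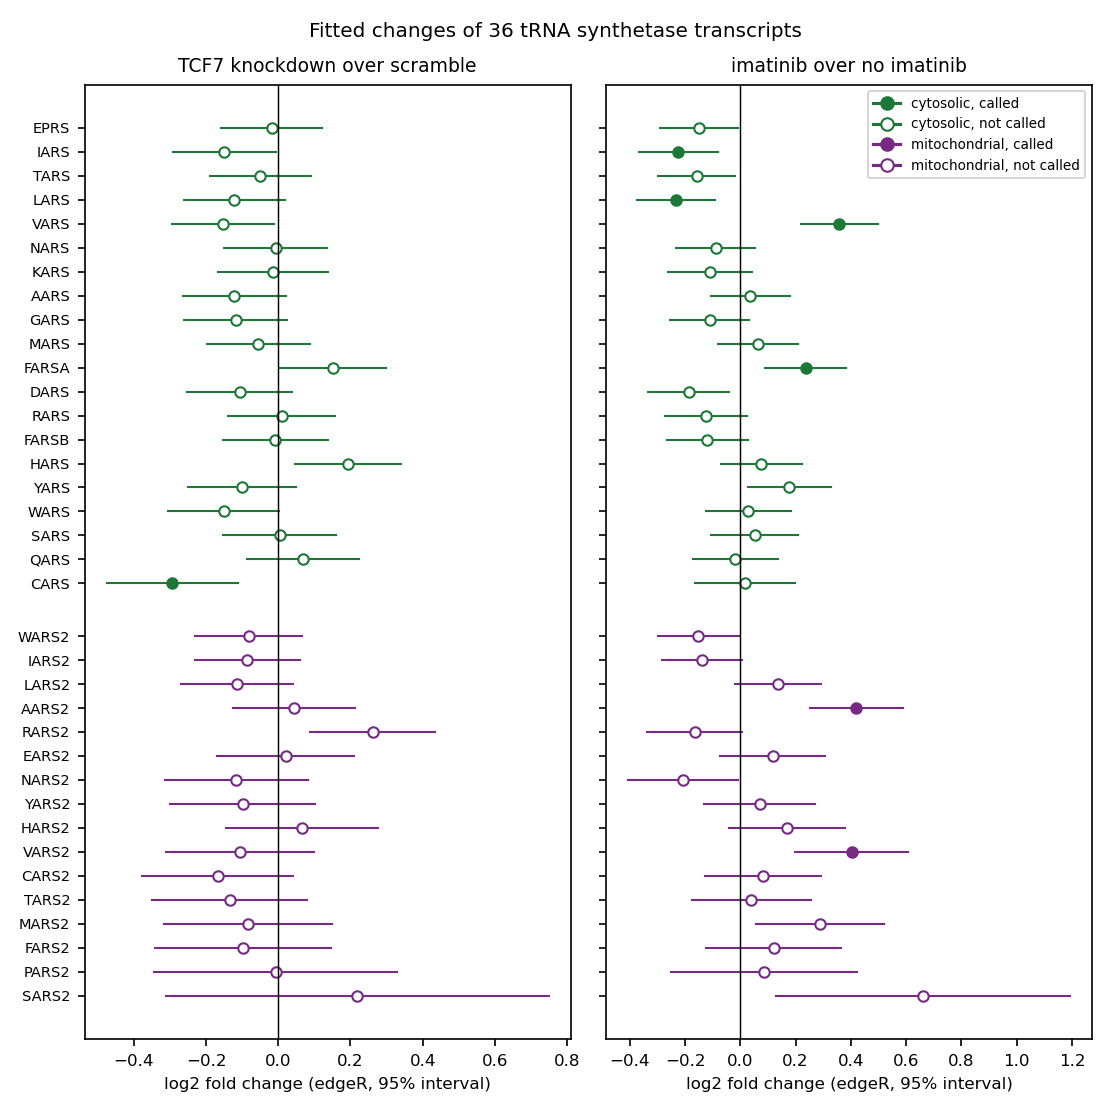
Fitted log2 fold changes of the 36 synthetase transcripts for TCF7 knockdown over scramble (left) and imatinib over no imatinib (right), with 95% intervals from edgeR over 4 libraries; filled points were called at an adjusted p under 0.05. With knockdown CARS is the only filled point, and with imatinib 4 cytosolic and 2 mitochondrial points are filled.

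The cytosolic synthetases often listed as ATF4 targets mostly had estimates below 0 with knockdown, and 9 amino acid response genes outside tRNA charging fell. Over all tested genes 6278 of 13296 had a fitted knockdown change below 0, and 3320 of 7185 among those averaging at least 20 CPM. Of the 13 synthetases in the ATF4 list, 12 had a fitted change below 0 with a median of -0.12, and 1, CARS, fell. Of the other 7 cytosolic members 3 were below 0 with a median of 0.01 and none was called by edgeR (2 were higher at an unadjusted p under 0.05). By sequence, the 7 cytosolic genes with the motif printed above had fitted changes from -0.29 to -0.01 with a median of -0.12, and the 9 with a window and no motif had -0.15 to 0.19 with a median of 0.00. All 7 with the motif and 4 of the 9 without it were below 0. The 7 are all in the ATF4 list, so they are not a separate set of genes. DARS, LARS, VARS and YARS, which had no window, had fitted changes of -0.11, -0.12, -0.15 and -0.10. These groups hold few genes, they were drawn up with earlier results of these data known, and no test of their difference was made.

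Of 27 amino acid response genes listed, 24 were tested. By edgeR 9 fell with knockdown (37.5%, beside 3.34% of all tested genes), 0 rose and 15 were not called. At an unadjusted p under 0.05, 1 was higher. This list too was drawn up with earlier results of these data known. Its shares describe the listed genes and are not a test against all genes. DESeq2 called 3 of the 24 lower, beside 144 genes lower over the whole table. Limma called 4 lower, beside 107 genes with FPKM plus 0.1 and 93 with FPKM plus 1. With offsets for GC content and length 11 of the 24 were called lower and 0 higher, beside 5.53% and 6.72% of all tested genes. SLC7A5, the transporter of large neutral amino acids, had 89.3 and 56.1 CPM with knockdown (under imatinib and without it), against 166 and 126 CPM with scramble, and it fell (log2 fold change -1.03, edgeR adjusted p = 2.02e-11). ASNS, asparagine synthetase, had 35.6 and 42.1 CPM with knockdown (under imatinib and without it), against 65.9 and 77.7 CPM with scramble (log2 fold change -0.89, edgeR adjusted p = 6.09e-09). DDIT4, an inhibitor of mTORC1 signalling, had 12.5 and 23.8 CPM with knockdown (under imatinib and without it), against 43.8 and 40.7 CPM with scramble (log2 fold change -1.27, edgeR adjusted p = 4.28e-08), and ATF3, a stress-induced transcription factor, had 1.07 and 1.12 CPM with knockdown (under imatinib and without it), against 2.70 and 3.44 CPM with scramble (log2 fold change -1.47, edgeR adjusted p = 0.00521). In all 4 genes both knockdown libraries lay below both scramble libraries. These 4 were named for the largest fitted changes among the 9 called, which makes such an order likely. ATF4 itself had ratios of -0.10 under imatinib and -0.23 without it with no call (edgeR adjusted p = 0.171). With offsets for GC content and length ATF4 was called lower (-0.22, edgeR adjusted p = 0.00457), so its call depends on the processing. EIF2AK4, which encodes GCN2, had 0.08 under imatinib and -0.06 without it. The motif was present for 7 of 22 response genes with a window (31.8%). Of these ASNS, ATF3 and CEBPG fell with knockdown, SLC3A2, SLC1A5 and SLC7A1 were not called, with fitted changes of -0.08, 0.10 and -0.19, and CHAC1 was below the expression filter. The windows of SLC7A5 and DDIT4 held no match. The median knockdown ratio of the 24 genes was -0.18 under imatinib and -0.36 without it, beside -0.08 and -0.10 for the ATF4-listed synthetases.

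**Figure D4:**
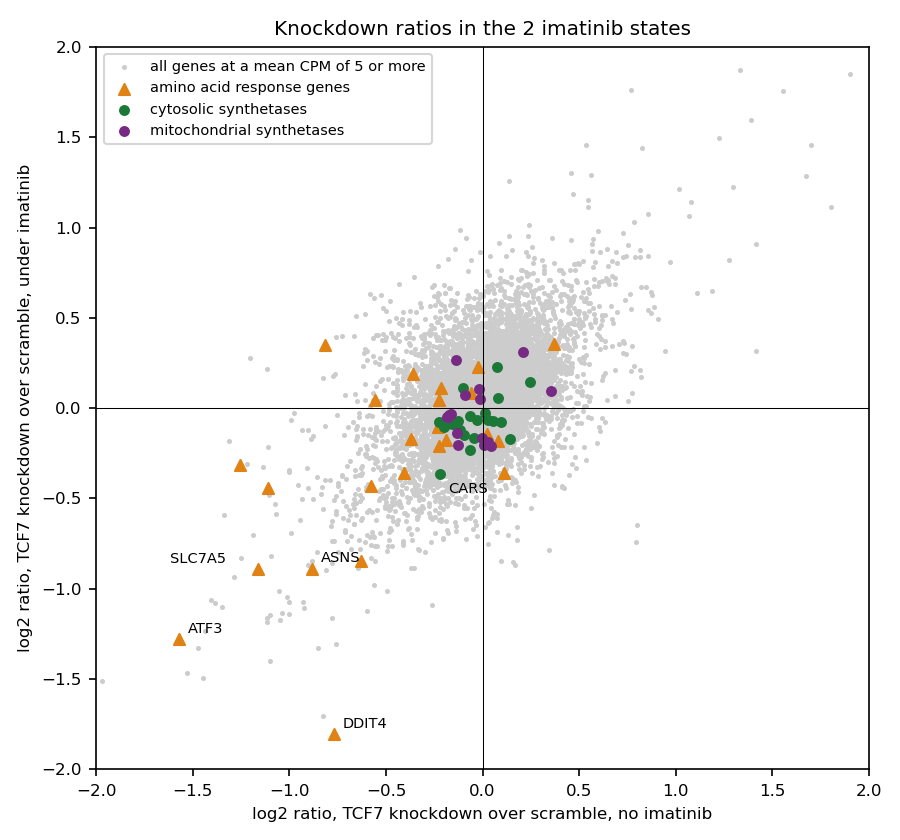
Log2 ratio of TCF7 knockdown over scramble without imatinib (x axis) and under imatinib (y axis) for synthetases, for the 24 tested amino acid response genes and, in grey, for every gene within the axes whose mean reached 5 CPM; each point is 1 gene and each axis compares 2 libraries. The synthetases lie near the origin, with CARS lowest under imatinib, and SLC7A5, ASNS, DDIT4 and ATF3 lie in the lower left.

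With imatinib, 6 synthetases were called by edgeR, 4 higher and 2 lower. Of the cytosolic members FARSA and VARS rose (10%) and IARS and LARS fell (10%), beside 13.8% of all tested genes called higher and 7.08% called lower. Of the mitochondrial members AARS2 and VARS2 rose (12.5%) and none fell, with 2 lower at an unadjusted p under 0.05. Among genes averaging at least 20 CPM, 17.3% were called higher and 11.8% lower, so the members' shares are near or below the background. DESeq2 called IARS and LARS lower and VARS and AARS2 higher, and limma called VARS and AARS2 higher.

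VARS (chromosome 6, 31777518 to 31795953, minus strand) had 436 and 469 CPM in the imatinib-treated knockdown and scramble libraries, against 329 and 378 CPM in the untreated knockdown and scramble libraries. Imatinib libraries were above the untreated ones without overlap, the log2 ratios were 0.41 in knockdown cells and 0.31 in scramble cells, and it rose (log2 fold change 0.36, SE 0.0692, edgeR adjusted p = 3.22e-04). FARSA (chromosome 19, 12922479 to 12934037, minus strand) had 222 and 189.6 CPM in the imatinib-treated knockdown and scramble libraries, against 179 and 169 CPM in the untreated knockdown and scramble libraries. Its 2 treated values were above its 2 untreated values, with ratios of 0.31 in knockdown cells and 0.16 in scramble cells, and it rose (log2 fold change 0.24, SE 0.0719, edgeR adjusted p = 0.0173), while FARSB, its partner in the same enzyme, had ratios of -0.14 in knockdown cells and -0.10 in scramble cells and was not called. YARS, for tyrosine, had 131 and 138 CPM with imatinib (knockdown and scramble cells), against 114 and 124 CPM without it. Treated libraries were higher in knockdown and in scramble cells, with ratios of 0.21 in knockdown cells and 0.15 in scramble cells and no call (edgeR adjusted p = 0.0832).

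IARS (chromosome 9, 92210207 to 92293756, minus strand) and LARS (chromosome 5, 146113038 to 146182660, minus strand), for isoleucine and leucine, are subunits of the multisynthetase complex. IARS had 526 and 617 CPM in the imatinib-treated knockdown and scramble libraries, against 649.8 and 681 CPM in the untreated knockdown and scramble libraries. Both treated values were below both untreated values, the ratios were -0.31 in knockdown cells and -0.14 in scramble cells, and it fell (log2 fold change -0.22, SE 0.0703, edgeR adjusted p = 0.0212). LARS had 457 and 507 CPM with imatinib (knockdown and scramble cells), against 548 and 585 CPM without it, again without overlap, with ratios of -0.26 in knockdown cells and -0.20 in scramble cells, and it fell (log2 fold change -0.23, SE 0.0689, edgeR adjusted p = 0.0150). Of the 8 synthetases of the complex (EPRS, IARS, LARS, QARS, MARS, KARS, RARS and DARS), 7 had a fitted imatinib change below 0, with a median of -0.14. Over all tested genes 6722 of 13296 were below 0, and 4125 of 7185 among those averaging at least 20 CPM. By edgeR 2 of the 8 fell (25%, beside 7.08% of all tested genes and 11.8% of those averaging at least 20 CPM) and 0 rose. At an unadjusted p under 0.05, 4 of the 8 were lower, a count with no share of all tested genes beside it. With offsets for GC content and length IARS and LARS were not called and QARS was the 1 complex member called, lower. The median ratio of the complex was -0.23 in knockdown cells and -0.07 in scramble cells, and -0.13 and -0.03 with the trend over GC content and length removed. Their summed level was 2396 and 2622 CPM in the imatinib-treated knockdown and scramble libraries, against 2785 and 2815 CPM in the untreated ones. The scaffold EEF1E1 of the complex also fell (log2 fold change -0.30, edgeR adjusted p = 0.0416), whereas the scaffolds AIMP1 and AIMP2 had ratios of -0.16 in knockdown cells and -0.14 in scramble cells, and 0.14 in knockdown cells and -0.07 in scramble cells, and were not called.

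AARS2, the mitochondrial alanine enzyme (chromosome 6, 44299654 to 44313326, minus strand), had 81.5 and 75.9 CPM in the imatinib-treated knockdown and scramble libraries, against 58.4 and 59.2 CPM in the untreated knockdown and scramble libraries. The treated libraries were higher without overlap, with log2 ratios of 0.48 in knockdown cells and 0.36 in scramble cells, and it rose (log2 fold change 0.42, SE 0.0833, edgeR adjusted p = 4.42e-04). VARS2, for valine (chromosome 6, 30908242 to 30926459, plus strand), had 39.9 and 41.0 CPM with imatinib (knockdown and scramble cells), against 28.7 and 32.5 CPM without it, with ratios of 0.47 in knockdown cells and 0.34 in scramble cells, and it rose (log2 fold change 0.40, SE 0.101, edgeR adjusted p = 0.00411). Of its exonic bases 22.0% are shared with the annotated gene GTF2H4 on the same strand. SARS2 had 4.65 and 4.36 CPM with imatinib (knockdown and scramble cells), against 3.22 and 2.51 CPM without it, and MARS2, for methionine, had 25.4 and 28.9 CPM with imatinib (knockdown and scramble cells), against 22.4 and 22.0 CPM without it. Treated values were the higher ones in both genes, with ratios of 0.52 in knockdown cells and 0.78 in scramble cells for SARS2 and 0.18 in knockdown cells and 0.39 in scramble cells for MARS2, and neither was called (log2 fold change 0.66, edgeR adjusted p = 0.0674, and log2 fold change 0.29, edgeR adjusted p = 0.0690). Past a log2 ratio of 0.32 in size, 4 mitochondrial members and 1 cytosolic member were higher in knockdown cells (25.1% of all tested genes, and 17.1% of those averaging at least 20 CPM) and none was lower (12.9% and 8.71%). In scramble cells 4 mitochondrial members and 0 cytosolic members were higher (14.6% and 7.4%) and none was lower (7.8% and 1.32%).

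The imatinib ratios of the synthetases followed the GC content of their transcripts, which runs from 41.2% to 62.6% among members. Over the 36 genes Spearman's rho between GC content and the imatinib ratio was 0.82 in knockdown cells and 0.74 in scramble cells, and over all 13255 tested genes with a GC value it was 0.66 and 0.57, as a description across genes that share the same libraries. The called members sit towards the ends of this range: VARS has 62.6%, FARSA 60.3%, AARS2 59.3% and VARS2 59.3%, and IARS has 43.6% and LARS 41.5%. With smooth trends over GC content and length entered as offsets none of these 6 was called (edgeR adjusted p from 0.252 to 0.755), the estimates of VARS and FARSA turned to -0.10 and -0.13, and QARS, for glutamine, fell (-0.22, edgeR adjusted p = 0.0254), beside 2.11% of all tested genes higher and 2.23% lower. Over all their alternatives the adjusted p ran from 5.55e-06 to 0.512 for VARS, 0.00439 to 0.636 for FARSA, 0.0168 to 0.677 for IARS, 0.0121 to 0.561 for LARS, 7.68e-06 to 0.619 for AARS2, 5.75e-04 to 0.755 for VARS2 and 0.0254 to 0.971 for QARS. The mitochondrial median ratio was 0.16 in knockdown cells and 0.07 in scramble cells, and 0.02 and 0.02 with the trend removed. The cytosolic median was -0.08 and -0.03, and -0.11 and -0.04 with the trend removed. The part of GC content in these calls was not tested further.

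**Figure D5:**
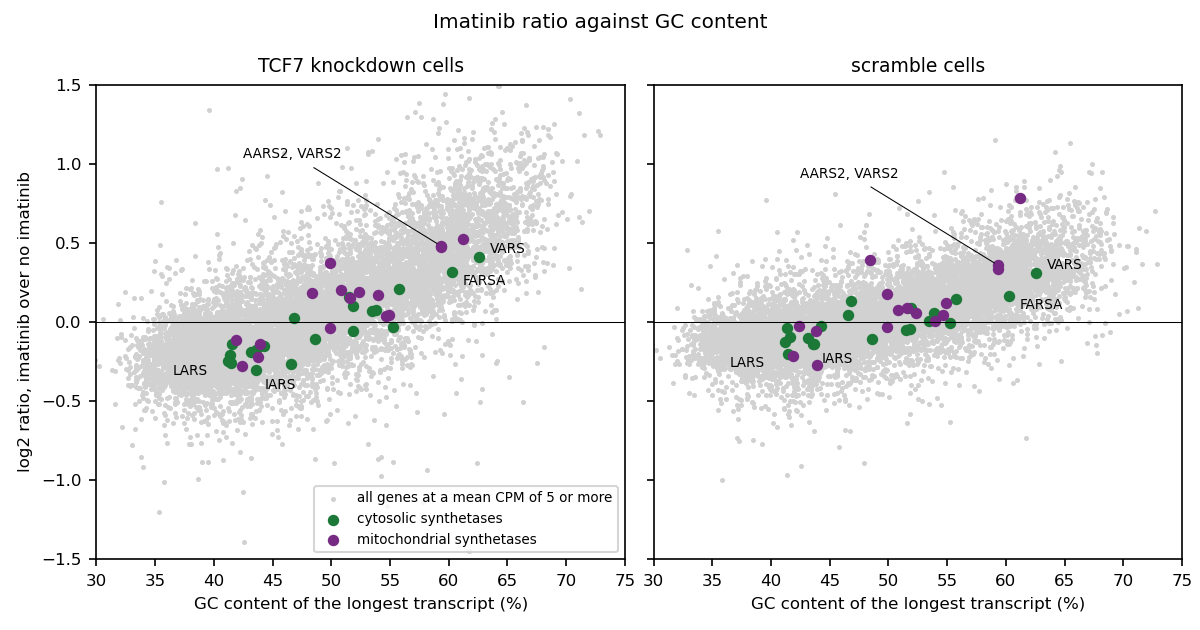
Log2 ratio of imatinib over no imatinib (y axis) against GC content of the longest transcript (x axis, %) in TCF7 knockdown cells (left) and scramble cells (right); each point is 1 gene, and grey points are every gene within the axes whose mean reached 5 CPM. The called synthetases VARS, FARSA, AARS2 and VARS2 lie at the GC-rich end and LARS and IARS at the GC-poor end of the same slope that the grey points show.

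The knockdown ratio differed most between the imatinib states in HARS2, KARS and SARS2, a difference that the design cannot test because it is the only residual. HARS2, the mitochondrial histidine enzyme, had 43.6 and 33.7 CPM in the knockdown libraries with and without imatinib, against 36.3 and 37.1 CPM in the scramble libraries with and without imatinib, so the knockdown library was the higher one under imatinib, with a ratio of 0.26 (0.15 to 0.38), and the lower one without it, with -0.14 (-0.26 to -0.02), a difference of 0.40. KARS, for lysine, had 213 and 257 CPM with knockdown (under imatinib and without it), against 240.1 and 233 CPM with scramble. Here the order was opposite, -0.17 (-0.22 to -0.12) under imatinib and 0.14 (0.10 to 0.19) without it, a difference of -0.31. SARS2 differed by -0.26 on its low counts. Over all 36 members the difference ran from -0.31 to 0.40.

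HARS and HARS2 are neighbours on chromosome 5 that are read in opposite directions from 1 shared region, and their knockdown ratios without imatinib had opposite signs (0.24 for HARS and -0.14 for HARS2), while under imatinib both were above 0 (0.14 for HARS and 0.26 for HARS2). The 84 bases between their RefSeq start sites (chr5:140691371-140691454, GRCh38.p14, plus strand, 59.5% GC) are printed to show that region, all in lower case because the motif searched above is not in it.
HARS-HARS2: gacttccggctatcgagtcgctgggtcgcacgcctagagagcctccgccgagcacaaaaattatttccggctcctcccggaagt
HARS shares 8.38% and HARS2 15.8% of exonic bases with other annotated genes, each other included, and the strand setting of the counting is not given in the sources used here, so reads in the shared bases are uncertain for both. Among all members 20 of 36 overlap exons of another gene, and 5 do so over more than 10% of their exonic bases: SARS2, VARS2, HARS2, MARS (13.3%, with DDIT3 and ARHGAP9) and WARS (10.6%).

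The synthetases not yet described in full had no call. NARS, AARS, DARS, RARS, FARSB, SARS, MARS, QARS, EPRS and TARS in the cytosol and PARS2, FARS2, EARS2, YARS2, NARS2, LARS2, IARS2 and WARS2 in mitochondria were not called in either comparison by edgeR without offsets. In PARS2, the proline enzyme, 10.1 and 8.97 CPM with knockdown stood against 9.58 and 9.54 CPM with scramble. In EPRS the values were 589 and 674 CPM, against 616 and 661 CPM. In both genes the knockdown and scramble libraries overlapped. The widest imatinib ratios among them were those of WARS2 (-0.28 in knockdown cells and -0.02 in scramble cells), DARS (-0.25 in knockdown cells and -0.13 in scramble cells) and NARS2 (-0.14 in knockdown cells and -0.27 in scramble cells).

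Other steps that handle charged tRNA had no call with knockdown and 4 with imatinib. Of 14 charging partners (scaffolds, editing enzymes, and enzymes of glutamine, formylmethionine and selenocysteine tRNA), 0 were called with knockdown by edgeR, DESeq2 or limma, and 0 passed an unadjusted p under 0.05. With imatinib EEFSEC, the elongation factor for selenocysteine, rose (log2 fold change 0.42, edgeR adjusted p = 0.0421) and EEF1E1 fell as given above, 1 of 14 in each direction (7.14%, beside 13.8% of all tested genes higher and 7.08% lower). Of 5 elongation factors tested, 0 were called with knockdown by any of these tools, with 1 lower at an unadjusted p under 0.05. With imatinib TUFM, which brings charged tRNA to the mitochondrial ribosome, rose (log2 fold change 0.35, edgeR adjusted p = 5.73e-04), as did EEF1D, a subunit of the cytosolic exchange factor (log2 fold change 0.33, edgeR adjusted p = 0.00128). That is 2 of 5 (40%, beside the same 13.8%). TUFM had 225 and 206 CPM in the imatinib-treated knockdown and scramble libraries, against 174 and 165 CPM in the untreated knockdown and scramble libraries, the treated libraries being above the untreated ones. None of EEFSEC, EEF1E1, TUFM and EEF1D was called with offsets for GC content and length.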

How the data were processed

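Per the labels' protocols, total RNA of 4 K562/G01 cultures was depleted of ribosomal RNA and made into strand-keeping libraries. The submitters' processing notes list FastQC, HISAT2, HTSeq 0.6.1 and GRCh38. The annotation release was not stated in any source used. The authors deposited whole-number read counts for 28482 genes, which entered the test unchanged. Deposited FPKM values are handled as a score, since 6 genes (no synthetase) are negative there, and served only for levels per length and for limma. The filter required 1 CPM in 2 libraries (13296 genes). The edgeR 4.0.16 quasi-likelihood test (R 4.3.3) had knockdown and imatinib as terms over all 4 libraries (1 residual and 33.8 prior degrees of freedom). Pair log2 ratios came from TMM-scaled CPM, prior count 2, with exact binomial 95% intervals for counting error. The fitting code was run on simulated counts with known knockdown changes. Those counts held no imatinib change, no interaction and no trend over GC content, so the run does not bear on the calls that the offsets change. GC content and length came from the longest GENCODE 29 transcript (13255 genes) and trends from mgcv 1.9.3. Alternatives also used DESeq2 1.42.0 and limma 3.58.1. Members, lists, the motif and tests were chosen with earlier results of these data known. In full are described members called in either test, the 4 per set with the largest smaller ratio of 1 sign for each factor, the 3 with the largest interaction, and HARS with HARS2, and of the other lists up to 4 called genes. A check of lymphoid markers is not reported here.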

Additional observations from a re-analysis of the deposited data

Results flagged for a closer look

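In 6 synthetases the knockdown ratio pointed one way under imatinib and the other way without it, with both counting intervals off 0. By sign alone 13 of the 36 members differed between the states. Over all 13296 tested genes 29.5% were lower and 32.9% higher in both states. The share of all tested genes with both intervals off 0 was not counted, so the 6 cannot be set against a background. Each state has 1 pair of libraries, so these differences were not tested against a replicate error. The log2 ratios of knockdown over scramble were 0.26 under imatinib and -0.14 without it for HARS2, 0.11 and -0.10 for SARS, -0.17 and 0.14 for KARS, -0.21 and 0.04 for WARS2, -0.0757 and 0.0940 for RARS, and -0.0699 and 0.0549 for NARS. For KARS the imatinib ratio also differed in sign, at -0.27 in knockdown cells and 0.05 in scramble cells, which was not tested either and rests on the same 4 libraries.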

How the results depend on the processing

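Each group has 1 library, so every call rests on 2 library pairs per factor, and small changes in genes of low count such as SARS2 and PARS2 were not resolvable at this depth. No paired analysis was possible because the labels give no replicate numbers to use as a block; the fit compares knockdown with scramble within each imatinib state through its imatinib term. Against 1 cytosolic and 0 mitochondrial members called with knockdown and 4 and 2 with imatinib, the counts were as follows. With offsets for GC content and length they became 4 and 1 with knockdown and 1 and 0 with imatinib, and the imatinib estimates of FARSA and VARS reversed to -0.13 and -0.10. With no expression filter the cytosolic knockdown count was 0. With DESeq2 the cytosolic knockdown count was 0 and the mitochondrial imatinib count 1. With limma on log2 of FPKM plus 0.1 or plus 1, the cytosolic knockdown count was 0 and the imatinib counts were 1 cytosolic and 1 mitochondrial. Without the other factor as a term all 4 counts were 0. Leaving out each library in turn, fitted without the other factor, leaves 1 library in an arm, which is assumed to vary like the rest. Such fits cannot decide whether a call holds. They do enter the ranges of adjusted p over alternatives given above. Scaling by DESeq2 size factors or total counts and a filter at 5 CPM left the knockdown call at CARS alone. Over all genes, 949 were called with knockdown and 2780 with imatinib, against 1628 and 576 with the offsets, 272 and 1003 with DESeq2, 195 and 1094 or 162 and 904 with limma, and 0 and 0 without the other factor. Other scalings shifted the median of all genes by less than 0.02 in log2 units. A fold of 1.5 left SARS2 in scramble cells as the only member past the fold with imatinib and none with knockdown.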

Other observations

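The synthetases fall into 2 structural classes with unrelated catalytic folds. The 9 cytosolic class I members had a median fitted knockdown change of -0.12, with 7 of 9 below 0. Among them edgeR called CARS, and 3 were lower at an unadjusted p under 0.05. The 10 class II members had a median of -0.01, with 7 of 10 below 0 and none called (2 higher and 0 lower at an unadjusted p under 0.05). Over all tested genes 6278 of 13296 were below 0. With imatinib the medians were 0.02 for class I, with VARS higher and IARS and LARS lower, and -0.10 for class II, with FARSA higher, beside 13.8% of all tested genes called higher and 7.08% lower. With offsets for GC content and length none of these 4 was called, QARS fell in class I, and no class II member was called. Both subunits of the phenylalanine enzyme belong to class II and differed in GC content, 60.3% in FARSA and 41.6% in FARSB, beside imatinib ratios of 0.31 in knockdown cells and 0.16 in scramble cells and of -0.14 in knockdown cells and -0.10 in scramble cells. Among amino acid response genes 7 of 24 rose with imatinib (29.2%, beside the same 13.8%) and 3 fell (12.5%, beside 7.08%) by edgeR. With the offsets 2 were higher and 1 lower. The list was drawn up with earlier results of these data known, so these shares are not a test against all genes. SLC7A5 had 89.3 and 166 CPM with imatinib (knockdown and scramble cells), against 56.1 and 126 CPM without it (log2 fold change 0.53, edgeR adjusted p = 1.12e-05), higher with imatinib in knockdown and in scramble cells. SLC1A5, a glutamine transporter, had 304 and 259.7 CPM with imatinib (knockdown and scramble cells), against 198 and 202 CPM without it (log2 fold change 0.49, edgeR adjusted p = 1.23e-05). Neither was called with the offsets, where SLC7A5 had 0.13, edgeR adjusted p = 0.272, and SLC1A5 had 0.08, edgeR adjusted p = 0.545.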
